A study of Mesocricetus auratus with 6 samples.

Results

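Notch signalling passes between cells that touch. A ligand on one cell (a Jagged or Delta-like protein) binds a Notch receptor on its neighbour, the proteases ADAM10 and gamma-secretase then cut the receptor, and the freed intracellular domain joins the DNA-binding protein RBPJ and a Mastermind coactivator to switch on repressor genes of the HES and HEY families. In the uterus the pathway is known from blood vessels, where endothelial and mural cells use different receptors, and from the change of stromal cells into decidua around an embryo. Described here are 10 genes of this pathway: the ligands JAG1, JAG2 and DLL1, the receptors NOTCH1, NOTCH2, NOTCH3 and NOTCH4, the targets HES1 and HEY1, and NUMB, an endocytic adaptor that restrains Notch.

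The tissue was the uterus of the Syrian golden hamster, Mesocricetus auratus, taken without treatment on day 5 of pregnancy, the time of embryo attachment. Whole pieces of uterus holding an implanting embryo (implantation sites, 3 arrays) were set against pieces between embryos (interimplantation sites, 3 arrays), to ask which transcripts differ where the embryo is. The design text speaks of 3 animals but no label ties an array to an animal, so errors here measure the spread between arrays. Hamster RNA was read on a human array, each value being the authors' log2 RMA value of a probe set, and a dim probe set may simply match the hamster transcript poorly.

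Platform annotation gave 9 of the 10 genes 21 probe sets out of 22215 tested; DLL1 had none and was not analysed here. RefSeq lists a hamster gene under each of the 10 symbols. Of the 21 probe sets, 19 name 1 gene, and both NUMB probe sets also name a second locus, so they are given as shared. The group was chosen by the lower signal of JAG1 at implantation sites in this same comparison. The differences of its members are therefore descriptions, with standard errors (SE) and 95% intervals from limma but without a test of their own, and they support nothing.

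Arrays were alike in brightness, with medians of 4.18 to 4.20. They correlated at 0.989 to 0.995 within a group and at 0.985 to 0.992 between groups. Over all probe sets, the median of the 6-array means was 4.19 and the quartiles were 3.10 and 5.18. Values of different probe sets cannot be ranked against each other, since their probes differ in how well they bind.

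JAG1 encodes the ligand Jagged 1, which endothelial, epithelial and stromal cells can all display. It was the one member with a large difference, and that difference appeared in full at 1 of its 4 probe sets. At the brightest, 209099_x_at, implantation arrays read 5.29, 5.34 and 5.14 and interimplantation arrays 5.95, 6.03 and 5.62 on the log2 scale. Every implantation array lay below every interimplantation array, and interimplantation site 3 came closest to the other group. The group means were 5.26 ± 0.10 and 5.86 ± 0.22 (SD, n = 3 arrays per group), a log2 difference of −0.61 ± 0.11 SE, or 1.52-fold lower at implantation sites, with a 95% interval from −0.84 to −0.37. In size this exceeded the differences of 99.4% of all probe sets. The x in this probe set's name is the maker's mark for a set in which some probes also resemble other sequences.

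The other JAG1 probe sets, all dimmer, leaned the same way by less. At 216268_s_at the implantation arrays read 3.12, 3.15 and 3.20 and the interimplantation arrays 3.25, 3.44 and 3.38, again without overlap. Its log2 difference was −0.20 ± 0.08 SE. At 209097_s_at the values were 3.29, 3.07 and 3.16 against 3.47, 3.13 and 3.27. At 209098_s_at they were 2.96, 3.05 and 2.72 against 3.14, 3.11 and 2.85. In the last 2 the groups overlapped, and the log2 differences, −0.11 ± 0.10 SE and −0.12 ± 0.11 SE, were close to their errors. All 3 lie between the 22nd and the 29th percentile of brightness, against 83.6 for the brightest, so the 4 readings agree in sign and not in size. The mean of the 4 probe sets differed by −0.26 on the log2 scale.

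**Figure D1:**
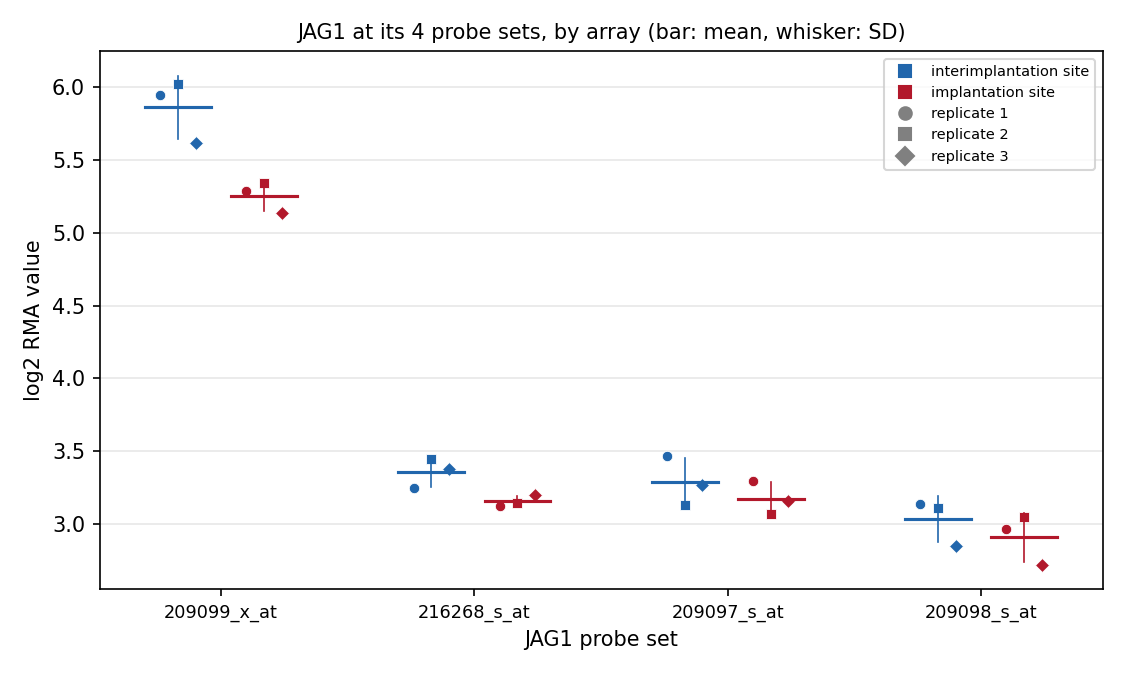
Log2 RMA value (vertical axis) of JAG1 at each of its 4 probe sets (horizontal axis) in 3 interimplantation (blue) and 3 implantation arrays (red), with the group mean as a bar and the SD as a whisker; marker shapes give the replicate number. At 209099_x_at the groups stand 0.61 apart, and at the 3 dimmer probe sets 0.11 to 0.20 apart.

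Other values moved with JAG1 between the same arrays. Marker genes of smooth muscle, averaged over 6 genes, lay between 5.17 and 5.21 in implantation and between 5.37 and 5.53 in interimplantation arrays, and ACTG2 and TAGLN, which encode contractile proteins, were 2 of the 6 past limma's threshold (adjusted p = 0.0488 and 0.0369). The list did not move as one. At their brightest probe sets ACTA2 was higher at implantation sites without overlap (0.15 ± 0.08 SE), MYH11 was at 0.00 and DES at −0.02. CNN1, at −0.23 ± 0.07 SE, was lower without overlap. Other MYH11 probe sets were at −0.02, −0.28 and −0.35, the last without overlap. None of these 4 genes passed. For 6 epithelial markers the ranges were 3.45 to 3.50 and 3.59 to 3.65, with 0 past limma's adjusted threshold and 2 of the 6, KRT8 and KRT19, at an unadjusted p under 0.05; 5 of these 6 genes were dimmer than the median probe set. For 7 endothelial markers they were 4.44 to 4.48 and 4.51 to 4.59, with 0 past limma's threshold and 0 at an unadjusted p under 0.05. These 3 lists were lower at implantation sites without overlap. Over all probe sets limma called 0.356% lower and 0.702% higher, and 10.5% had an unadjusted p under 0.05. Lists for stroma, pericytes (which holds NOTCH3 itself), leukocytes and trophoblast overlapped between groups, the trophoblast list at 4.60 to 4.70 against 4.60 to 4.73. Within the stroma list 1 of 6 genes passed limma's threshold, COL1A1, a fibrillar collagen, which was higher. COL1A1 was at 0.56 ± 0.09 SE at its brightest probe set, 217430_x_at, which carries the x mark (limma adjusted p = 0.00955). The other 3 COL1A1 probe sets were at 0.05 to 0.27. At its brightest probe set COL3A1, another fibrillar collagen, was also higher without overlap (0.26 ± 0.09 SE). ESR1 was at 0.13 ± 0.09 SE at its brightest, 211233_x_at. The other ESR1 probe sets had both signs, from −0.24 ± 0.11 SE at 205225_at to 0.15 ± 0.07 SE at 211234_x_at. DCN was lower without overlap (−0.25 ± 0.10 SE), and VIM and PGR were at −0.22 ± 0.11 SE and −0.12 ± 0.11 SE. Apart from COL1A1, none of these passed. RMA values have no zero, so absence of a cell type cannot be read from them, and in whole tissue fewer cells of a type and less RNA per cell cannot be told apart. The actin 3′ control minus the 5′ control, a measure of RNA quality, was −2.08 ± 0.22 in implantation and −1.70 ± 0.15 in interimplantation arrays (log2, SD, n = 3 each), also without overlap. For GAPDH the same measure was −0.20 ± 0.16 and 0.13 ± 0.17, with overlap. These control probe sets are human and may match the hamster transcripts poorly, so RNA quality cannot be read from their level alone. The part of cell makeup or RNA quality in the JAG1 difference was not tested.

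JAG2, the second Jagged ligand, showed no difference of the size at the brightest JAG1 probe set. Its probe set 32137_at read 5.916, 6.068 and 6.001 at implantation sites and 5.954, 5.988 and 6.130 at interimplantation sites. Its probe set 209784_s_at read 5.23, 5.47 and 5.46 against 5.44, 5.41 and 5.43. The groups overlapped at both, with log2 differences of −0.03 ± 0.08 SE and −0.04 ± 0.08 SE. Both are bright, at percentiles 91.1 and 80.4. The 95% intervals, from −0.20 to 0.15 and from −0.22 to 0.14, leave out the difference at the brightest JAG1 probe set, which chose the group. Both intervals include the differences at the dimmer JAG1 probe sets, −0.20, −0.11 and −0.12.

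The receptors differed little between sites. NOTCH1, which has been studied in decidualising stroma of the mouse, read 4.57, 4.27 and 4.33 at implantation and 4.57, 4.46 and 4.43 at interimplantation sites. The groups overlapped (log2 −0.10 ± 0.09 SE), with implantation site 1 at the level of the highest interimplantation array. NOTCH3, the receptor of pericytes and vascular smooth muscle, read 6.65, 6.53 and 6.54 against 6.68, 6.53 and 6.75 at its brighter probe set, 203237_s_at. There the log2 difference was −0.08 ± 0.08 SE, and at 203238_s_at it was 0.03 ± 0.08 SE, with overlap at both. NOTCH4, which is found mainly on endothelium, read 4.64, 4.58 and 4.67 against 4.54, 4.76 and 4.65, with a log2 difference of −0.02 ± 0.08 SE. Its implantation arrays lay inside the range of its interimplantation arrays.

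NOTCH2, a widely expressed receptor, gave different answers at its 4 probe sets. At the brightest, 210756_s_at, implantation arrays read 5.77, 5.99 and 5.90 and interimplantation arrays 6.21, 6.05 and 6.04. The groups stood apart by a narrow margin, with a log2 difference of −0.21 ± 0.09 SE. At 202445_s_at and 202443_x_at the differences were −0.03 ± 0.10 SE and 0.00 ± 0.09 SE. At 212377_s_at implantation arrays read 3.48, 3.28 and 3.36 against 3.30, 3.11 and 3.26, a difference of the opposite sign (0.15 ± 0.08 SE) with overlap. The mean over the 4 probe sets differed by −0.02, so the sign of the NOTCH2 difference depends on the probe set read.

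No probe set of the targets HES1 and HEY1 was lower at implantation sites without overlap. HES1, a repressor that many tissues switch on through Notch, read 5.95, 6.09 and 6.07 at implantation and 5.81, 5.99 and 6.14 at interimplantation sites at its brightest probe set, 203395_s_at. Its 3 probe sets differed by 0.06 ± 0.09 SE, −0.07 ± 0.09 SE and 0.02 ± 0.08 SE on the log2 scale, and the groups overlapped at each. HEY1, a related repressor of endothelium and other tissues, read 5.20, 5.31 and 5.22 against 5.13, 5.10 and 4.83 at 44783_s_at. All 3 implantation arrays lay above all interimplantation arrays there, with a log2 difference of 0.22 ± 0.09 SE and a 95% interval from 0.03 to 0.42. The second HEY1 probe set, 218839_at, read 4.68, 4.86 and 4.83 against 4.81, 4.74 and 4.76, with overlap and a difference of 0.02 ± 0.08 SE. The higher HEY1 signal was thus seen at 1 of 2 probe sets, and without interimplantation site 3, the lowest array, it was 0.13.

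The probe sets shared by NUMB and the second locus overlapped as well. At 209073_s_at the values were 4.46, 4.64 and 4.42 at implantation and 4.45, 4.70 and 4.59 at interimplantation sites (log2 −0.07 ± 0.09 SE). At 207545_s_at they were 2.22, 2.54 and 2.44 against 2.57, 2.38 and 2.53 (log2 −0.09 ± 0.10 SE). The latter is dim, at percentile 9.93 of brightness, and says little about its transcript.

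**Figure D2:**
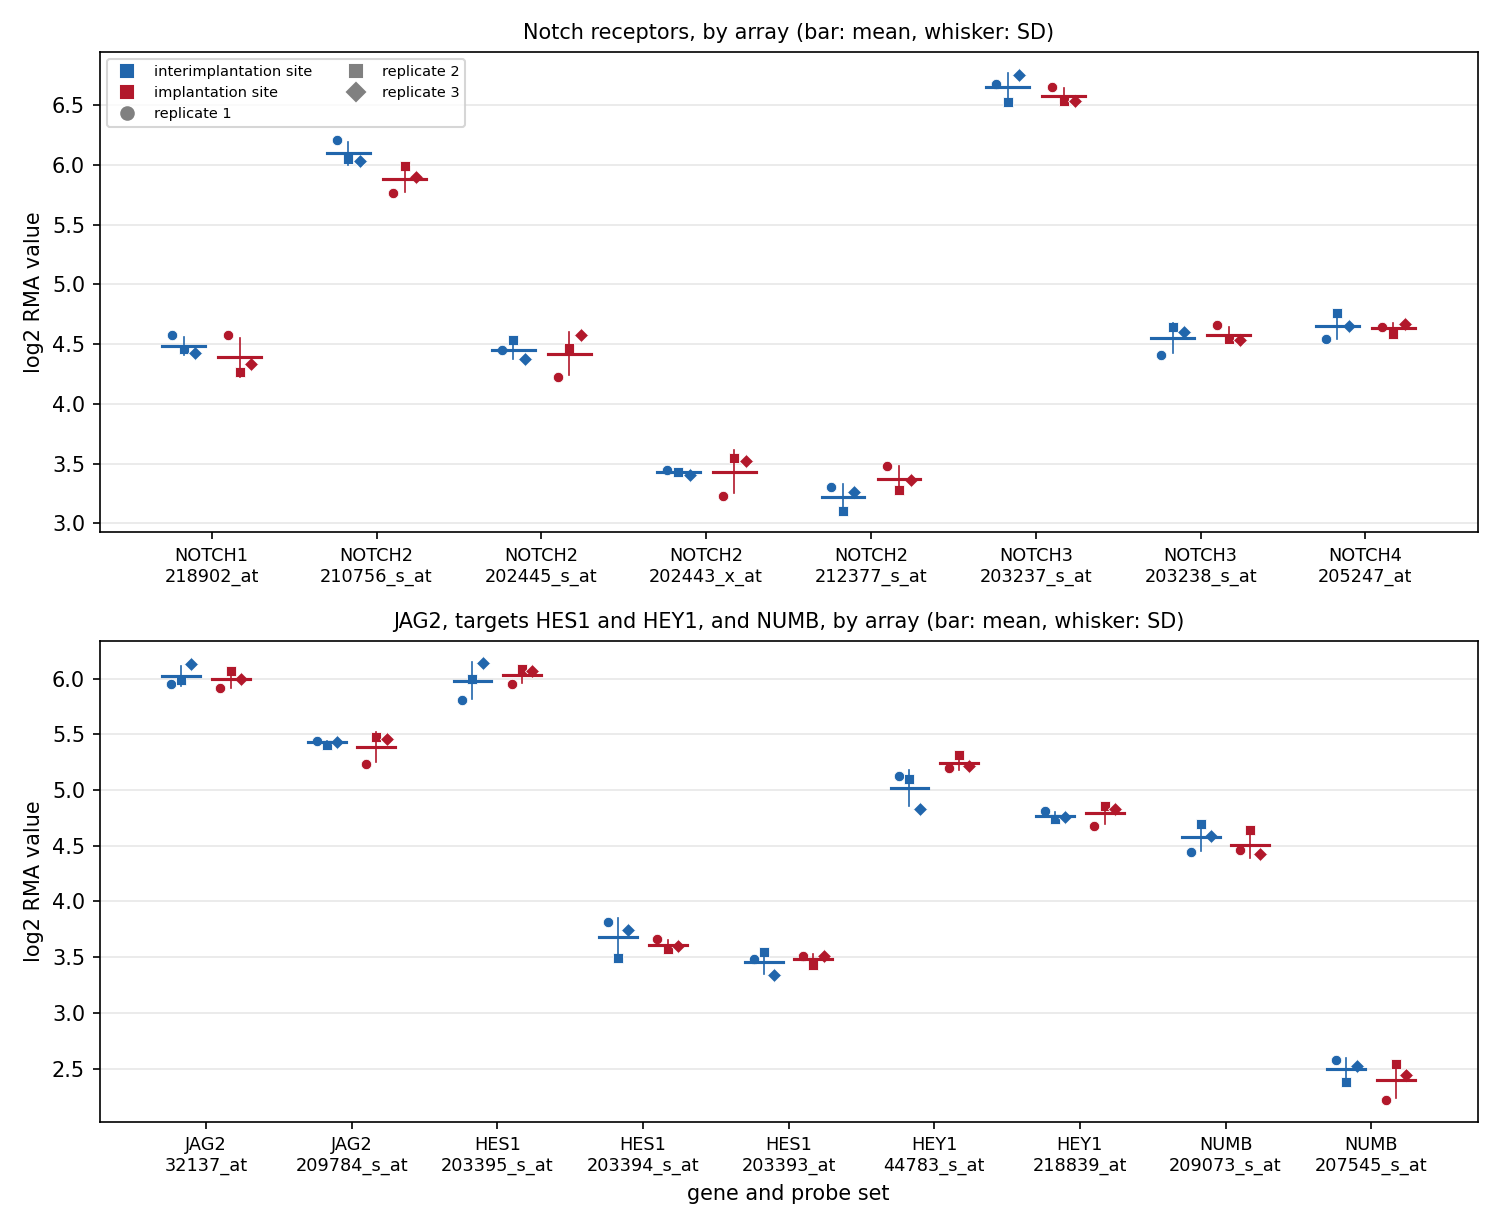
Log2 RMA value (vertical axes) of the receptors (top) and of JAG2, HES1, HEY1 and the probe sets shared by NUMB (bottom) in 3 interimplantation (blue) and 3 implantation arrays (red), with group means as bars and SDs as whiskers; marker shapes give the replicate number. Groups overlap everywhere except NOTCH2 at 210756_s_at (lower at implantation sites) and HEY1 at 44783_s_at (higher).

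Over the 21 probe sets, 14 were lower and 7 higher at implantation sites, with a median log2 difference of −0.04 beside −0.01 over all probe sets, of which 53.6% were lower. The median size of the difference was 0.07, the same as over all probe sets at 2 decimals. The arrays did not overlap at 3 member probe sets that were lower, 2 of them of JAG1, beside 8.30% of all probe sets, and at 1 that was higher, beside 7.72%. In limma's fit with Benjamini-Hochberg adjustment over all probe sets and a threshold of 0.05, 1 of the 21 passed, JAG1 at 209099_x_at. This call was lost when implantation site 1, implantation site 3, interimplantation site 1 or interimplantation site 2 was left out, and as the mean of the 4 JAG1 probe sets. The background was 1.06% of all probe sets in either direction, 0.356% lower and 0.702% higher. Because this comparison chose the group, nothing is read from the member counts. Without JAG1, 0 of 17 probe sets passed in limma's fit and 2 had an unadjusted p under 0.05, against 10.5% of all probe sets.

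Precision can be stated for those 17. Their log2 differences ran from −0.21 to 0.22 and 14 were under 0.1 in size. Their 95% intervals all lay between −0.40 and 0.42, which leaves out changes of probe set signal beyond 1.32-fold lower and 1.34-fold higher. Group SDs of the members ranged from 0.017 to 0.22 with a median of 0.10, near the medians over all probe sets of 0.09 in both groups. These limits hold for the signal of the probe sets, and 5 of the 17 were dimmer than the median probe set.

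**Figure D3:**
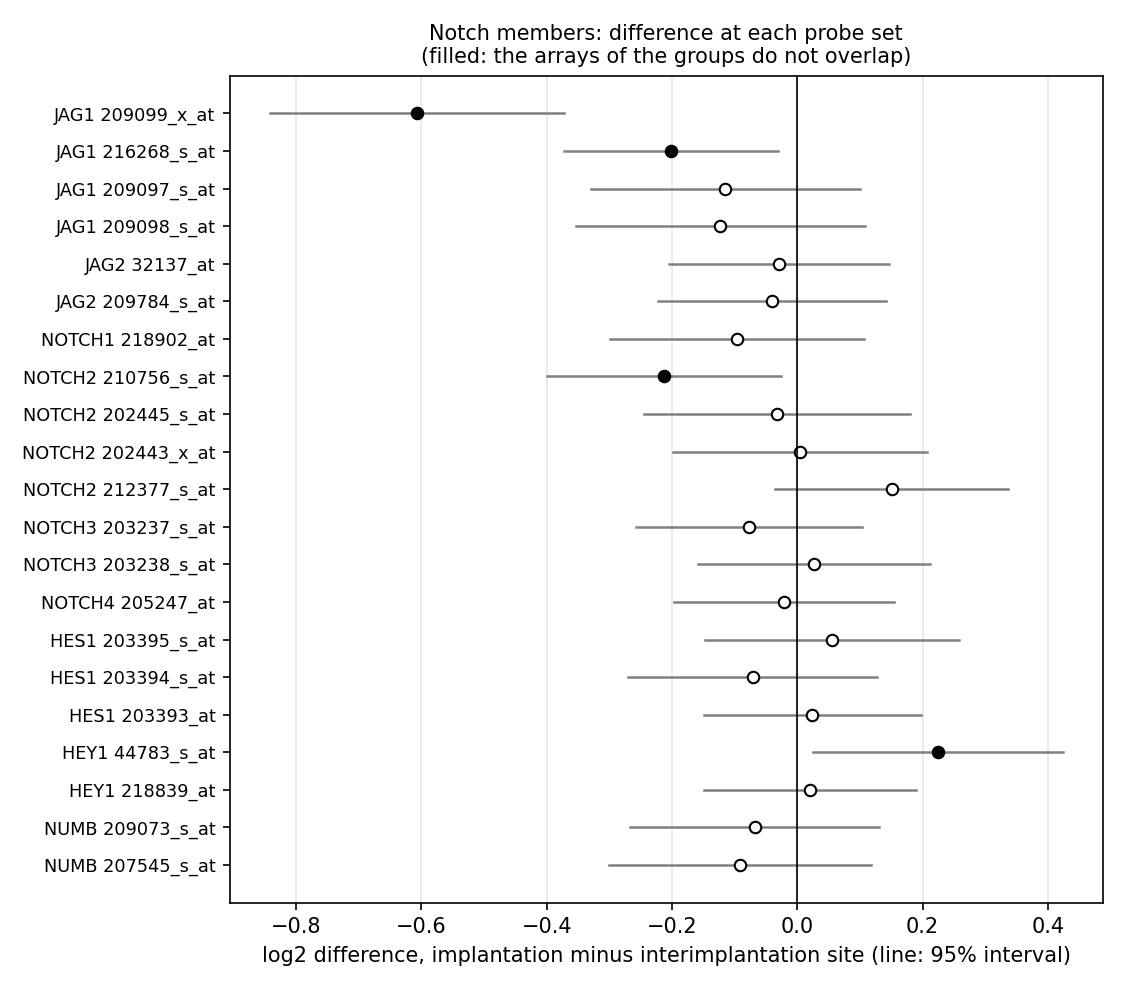
Log2 difference, implantation minus interimplantation site (horizontal axis), at the 21 probe sets of the Notch genes (vertical axis), with 95% intervals as lines; filled points mark probe sets whose arrays do not overlap between groups. JAG1 at 209099_x_at lies at −0.61, apart from the rest, which span −0.21 to 0.22.

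A wider list of 67 Notch pathway genes was read in the same fit to place the members. It had 49 genes with 91 probe sets of their own; the others were not analysed here. Of the 91, limma called 0 higher and 0 lower. An unadjusted p under 0.05 was reached by 7, 1 of them higher and 6 lower, beside 10.5% of all probe sets. The median log2 difference of the list was −0.02, beside −0.01 over all probe sets.

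Closest to the threshold was MFAP5, a microfibril protein that has been described as a noncanonical Notch ligand. It read 4.35, 4.34 and 4.39 at implantation and 3.92, 4.12 and 3.96 at interimplantation sites, all implantation arrays being higher. Its log2 difference was 0.36 ± 0.08 SE, 1.29-fold, at 209758_s_at (limma adjusted p = 0.0553, and 0.0446 to 0.215 over 13 alternatives, 2 of which passed). Its other 2 probe sets, both dimmer than the first quartile, showed 0.02 and −0.08. The remaining ligand genes of the list, among them DLL3 and DLK1, did not pass.

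ADAM10, the protease of the first cut in ligand-bound receptors, was lower at both of its bright probe sets without passing. At 202604_x_at implantation arrays read 5.10, 5.27 and 5.05 and interimplantation arrays 5.29, 5.48 and 5.55. The groups just missed each other, with a log2 difference of −0.29 ± 0.09 SE (limma adjusted p = 0.234). At 202603_at the difference was −0.20 ± 0.09 SE (0.439), and at the third probe set, near the bottom of the brightness range, it was 0.01. Among subunits of gamma-secretase, NCSTN (nicastrin) and PSENEN were each at −0.01, APH1A was at 0.03 and APH1B at −0.04. PSEN2 was at 0.17 ± 0.08 SE at its dimmest probe set and at −0.07 and −0.02 at its others.

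RBPJ, the DNA-binding protein of the pathway, could not be placed. Its bright probe set, 211974_x_at, read 6.83, 7.16 and 7.00 at implantation sites and 7.81, 5.75 and 5.36 at interimplantation sites. Interimplantation site 1 lay above all implantation arrays and the other two below them, for a difference of 0.69 ± 0.46 SE (limma adjusted p = 0.668). Without interimplantation site 1 the difference was 1.44 (adjusted p = 0.000487), and over 13 alternatives the adjusted p ranged from 0.000487 to 0.954, with 1 that passed. Its second probe set, at percentile 6.07 of brightness, differed by 0.03. RBPJ and CTBP1 were named after their values were seen. CTBP1, a corepressor, was at 0.37 ± 0.17 SE with overlapping groups at 203392_s_at, its dimmest probe set, and at 0.09 and 0.00 at the other two.

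In each other role the probe set with the smallest p lay lower at implantation sites and did not pass in limma's fit. Among coactivators this was EP300, a histone acetyltransferase, at −0.24 ± 0.09 SE (adjusted p = 0.353). Among corepressors it was TLE1 at −0.25 ± 0.09 SE (0.309) at 1 of 3 probe sets, with −0.03 at its brightest and −0.07 at the third. ITCH, a ubiquitin ligase that acts on Notch, was at −0.20 ± 0.07 SE (0.305) at 1 of 3 probe sets, 209744_x_at. Its others were both at 0.05. EPN1, an endocytic adaptor, was at −0.15 ± 0.07 SE (0.499) at 221141_x_at. Like the brightest of JAG1, these named ITCH and EPN1 probe sets carry the x mark, as do ADAM10 at 202604_x_at and RBPJ at 211974_x_at. POFUT1, which adds fucose to Notch, was at −0.11 ± 0.08 SE (0.678). Among further targets, HEY2 was at −0.17 ± 0.09 SE (0.568), and HEYL, a target of vascular smooth muscle, read 4.64, 4.73 and 4.76 against 4.79, 4.90 and 4.81, a difference of −0.12 ± 0.07 SE without overlap. HES2 showed differences of both signs at its 2 probe sets, −0.06 and 0.10.

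**Figure D4:**
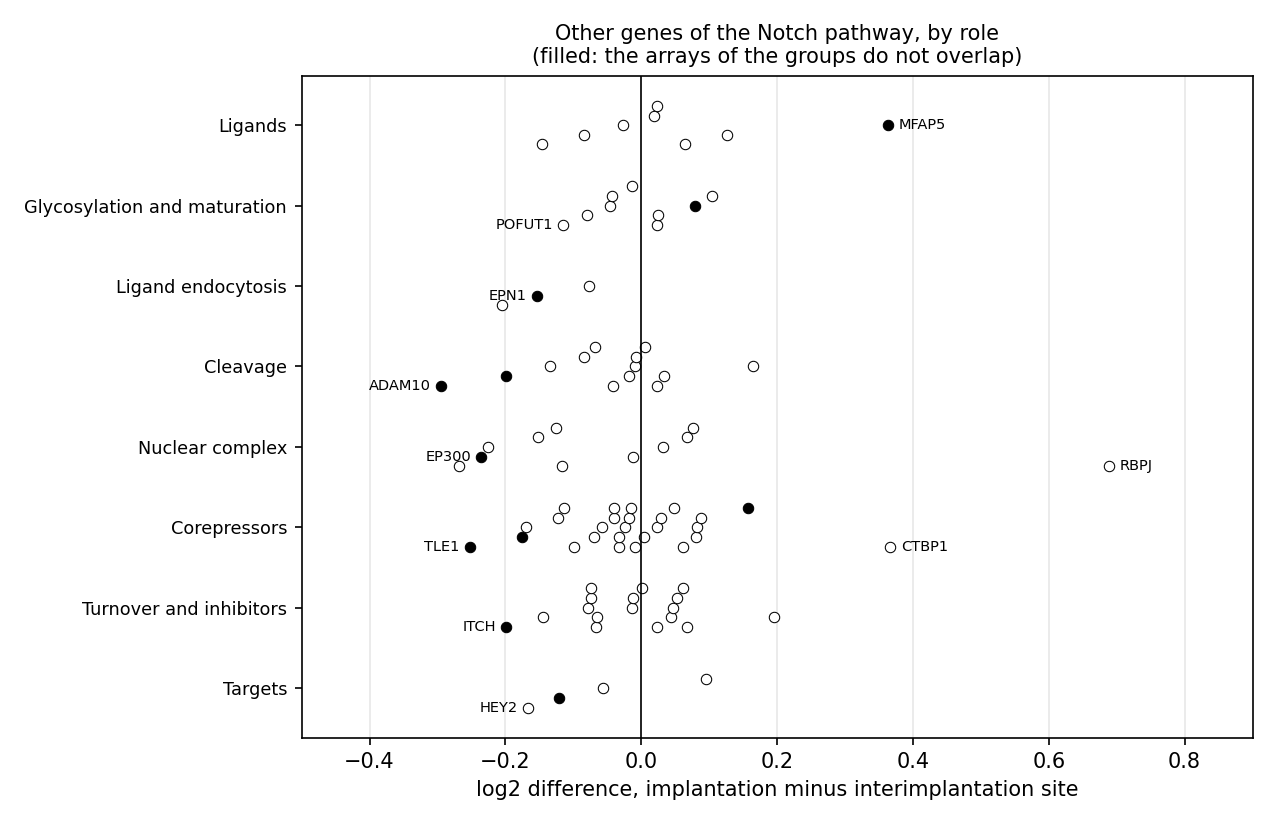
Log2 difference, implantation minus interimplantation site (horizontal axis), of 91 probe sets of other Notch pathway genes by role (vertical axis); filled points mark probe sets whose arrays do not overlap between groups, and names mark the smallest p of each role and 2 probe sets with large differences. RBPJ at 0.69 has overlapping groups, and MFAP5 at 0.36 does not.

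The genes whose signal across the 6 arrays was most like JAG1 at 209099_x_at are given as a description. Among 9680 probe sets of 1 gene at or above the median brightness, the highest Pearson correlations were those of QKI, an RNA-binding protein (r = 0.997), MEF2A, a transcription factor known from muscle (0.991), SPTAN1, a spectrin of the membrane skeleton (0.987), RALGDS, an exchange factor for Ral GTPases (0.981), and GLUL, glutamine synthetase (0.979). All 5 were lower at implantation sites without overlap. MEF2A read 7.49, 7.57 and 7.34 at implantation and 8.00, 8.09 and 7.84 at interimplantation sites. Site 3 was the lowest array of each group, as for JAG1, and a choice by correlation over these arrays favours such a shared order. In all, 112 of the 9680 probe sets reached 0.9; the 6 points fall into the 2 groups, and probe sets that differ between the groups share that split.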

How the data were processed

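Per the submitters' processing notes, the authors ran RMA in Partek 6.6, and the deposited table holds a log2 value for each probe set on each array. RMA settings and the log base were not given in the sources used here; values from 1.65 to 12.1 were taken as log2. Of 22283 probe sets, 68 controls were left out. Platform annotation gave 1 gene to 19065 of the rest, several to 1043 and none to 2107. The 2 groups of 3 arrays entered limma 3.58.1 under R 4.3.3 (lmFit, eBayes, two-sided, no covariate), with p-values adjusted by Benjamini-Hochberg over 22215 probe sets at 0.05. Every probe set of a member was read separately. The fit was tested on simulated data. The array count limits the precision, and no scan date was used here.

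Members, pathway list and markers were chosen with earlier results of these data known. Of other pathway genes the text names any that passed and the smallest p of each role, of look-alike genes the 5 highest correlations. RBPJ, CTBP1, HEYL, HES2, NCSTN, PSENEN, APH1A, APH1B and PSEN2 were named after their values were seen. Among markers the same holds for KRT8, KRT19, ACTG2, TAGLN, ACTA2, MYH11, DES, CNN1, COL1A1, COL3A1, DCN, VIM, ESR1 and PGR. Sequences were not used here. Alternatives covered normalization, brightness, array weights, the replicate block, each array left out, probe sets with x or s in their suffix, and averaging the probe sets of a gene.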

Additional observations from a re-analysis of the deposited data

How the results depend on the processing

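At its brightest probe set JAG1 stayed lower under every alternative that kept this probe set, from −0.73 to −0.53 with single arrays left out, and its 209099_x_at then passed limma's threshold in 2 of 6 fits. It did not pass without implantation site 1, implantation site 3, interimplantation site 1 or interimplantation site 2, nor as the mean of the gene's probe sets (log2 −0.26). The count of member probe sets past the threshold ran from 0 to 1 over the arrays left out. It was 0 without probe sets ending in _x_at, an alternative added after seeing the data, and 0 without those ending in _x_at or _s_at, where JAG1 had no probe set left. That last setting called 37 probe sets higher and 20 lower in all, against 156 and 79, with fewer tested. Array weights called 133 lower. Leaving out single arrays gave 83 to 140 higher and 33 to 90 lower. Of the wider list 0 to 1 were called higher over the arrays left out (RBPJ, without interimplantation site 1) and 0 to 0 lower; MFAP5 made 1 call with array weights and 1 with the random replicate block. The cause of these shifts was not tested, beyond the smaller number of probe sets or arrays. Apart from JAG1 at its brightest probe set, whose gene mean moved as given, 1 of 283 comparisons of single member values moved by more than the spread between arrays, the mean of the NOTCH2 probe sets (−0.02 against −0.21). Part of the 283 could not move. The replicate block, fixed or random, and the filters by brightness or suffix leave the difference of a probe set unchanged. NOTCH1 and NOTCH4 have 1 probe set each, so their gene means repeat it. The 283 thus overstates how many values could have moved. Deviations of arrays with the same replicate number correlated at 0.05, 0.00 and 0.07, and 4 of 6 arrays correlated best with their own number. With 3 arrays per group, these values cannot tell whether replicate numbers pair sites of the same animal. With the replicate block 159 probe sets were higher and 93 lower, 1 member passed (JAG1), and 0 of the wider list did.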
